A study of Homo sapiens with 8 samples.

Results

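The ATP-binding cassette (ABC) transporter family was followed in MP38 uveal melanoma (UM) cells after 24 h with romidepsin, quisinostat or mivebresib. Members were all rows of the count table whose symbol is ABC, a subfamily letter from A to G and a number. This gave 46 members among 35238 gene symbols, of which 40 passed the filter on low counts, out of 15085 genes tested. MP38 is a BAP1-mutant human cell line, so every group carried that genotype. The 4 groups of 2 libraries each were a 0.1% DMSO control, 40 nM romidepsin, 40 nM quisinostat and 1200 nM mivebresib, and the drugs were given in the same final DMSO. Romidepsin and quisinostat inhibit histone deacetylases (HDACs), which remove acetyl groups from histones. Mivebresib inhibits the BET proteins, which bind acetylated histones. The libraries came from duplicate wells of 1 cell line, so the p-values below measure the spread between wells.

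ABC proteins couple ATP hydrolysis to movement of a substrate across a membrane. Subfamilies A and G mainly carry lipids and sterols. Subfamilies B and C include the drug exporters and the transporters of conjugated metabolites, and subfamily D works at peroxisomes and lysosomes. Subfamilies E and F have no membrane part and act on ribosomes. ABCB1, also called P-glycoprotein, is the exporter best known from multidrug resistance, and romidepsin is one of its substrates. The question put to these libraries is how each member differed between the groups. Transcript counts say nothing of transport.

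Of the 46 members, 12 belong to subfamily A, 9 to B, 12 to C, 4 to D, 1 to E, 3 to F and 5 to G. The members that passed the filter numbered 11, 8, 10, 4, 1, 3 and 3 in the same order. The other 6 had few or no reads. ABCA4, the retinal lipid carrier, had 1 to 5 reads a library, and ABCG5, which pairs with ABCG8 as a sterol exporter, had 0 to 5. ABCB11, the bile salt pump, ABCC12, ABCC13 and ABCG8 had 0 to 2 reads in every library, and a count of 0 allows up to 3 reads. Reading depth was even, with 28483235 to 29359024 counts a library.

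Melanocytic markers of the labelled tumour were detected in part. Of 8 markers, 6 reached 1 CPM (counts scaled to a common library size) in every group, TYRP1 the highest among them, while DCT and S100B stayed below it. TYRP1 made up most of the sum of the 8, which was 4194 to 5452 CPM in control, 4739 to 5027 in romidepsin, 3563 to 4108 in quisinostat and 3698 to 3776 in mivebresib. For MITF, SOX10 and MLANA, both quisinostat and both mivebresib libraries lay below the control. MITF, the lineage transcription factor, had 351 and 349 CPM in control, 133 and 134 with quisinostat, and 124 and 129 with mivebresib. SOX10 had 216 and 202, then 107 and 114, then 57.2 and 52.8, and MLANA 219 and 192, then 101 and 98.6, then 83.4 and 80.2. Romidepsin libraries also lay below the control for MITF (293 and 308 CPM) and SOX10 (149 and 169 CPM), while MLANA overlapped it (177 and 197 CPM). PMEL and TYR lay below the control with mivebresib only, and TYRP1 overlapped it with every drug. Of 8 fibroblast markers only COL1A1 and PDGFRA reached 1 CPM, and the list summed to 14.6 to 22.8, 20.5 to 24.9, 34.9 to 35.9 and 8.38 to 10.6 CPM in control, romidepsin, quisinostat and mivebresib libraries. Of 5 leukocyte markers only CD68, which is also a lysosomal protein of other cells, reached 1 CPM (61.1 to 83 CPM), and CD3E had no read. Of 4 endothelial markers, KDR stood at 0.425 and 0.621 CPM in control, 3.02 and 2.62 with romidepsin, 4.5 and 5.06 with quisinostat, and 0.768 and 1.04 with mivebresib, and CDH5 had no read. Of 5 epithelial markers, KRT18 reached 1.86 to 6.39 CPM and CDH1 0.539 to 5.34, and KRT5 had no read. Of 3 hepatocyte markers none reached 1 CPM. The part of these lists in the member results was not tested.

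The duplicates of the control stood further apart than those of the drugs. Over the table, the chi-square per degree of freedom between duplicates was 58.1 in control and 9.52 to 9.79 in the drug groups. Among the 40 tested members, 32 were higher in control 2 than in control 1, with a median log2 ratio of 0.36, while 49.9% of all tested genes were. The members have long transcripts, with a median union exon length of 7960 bases against 5044 over all genes. Of the 3166 genes at least that long, 71.1% were higher in control 2. In the drug groups, the share of these genes higher in the library numbered 2 was 36.7% for romidepsin, 65.8% for quisinostat and 68.8% for mivebresib. Of the 40 members, 11, 28 and 25 were higher there. Results below that change when either control library is left out are given with those values.

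Among the 40 tested members, edgeR called 7 higher and 1 lower in the romidepsin group (adjusted p below 0.05). Over all genes 15.2% were higher and 15.8% lower. Quisinostat gave 10 higher and 10 lower members, beside 28% higher and 25.1% lower over all genes. Mivebresib gave 13 higher and 7 lower, beside 22.2% and 24.1%. The share of members called was therefore 20%, 50% and 50%, beside 31%, 53.2% and 46.2% of all genes. The median log2 fold change of the members was 0.11, 0.26 and 0.36 for romidepsin, quisinostat and mivebresib, and that of all genes was -0.01, -0.00 and 0.01. The romidepsin count of higher members was 15 without control 2 and 3 without either romidepsin library, and it was 4 without either quisinostat library. The count of lower members with romidepsin was 5 without control 1 and 0 without either romidepsin or either quisinostat library. The count of lower members was 6 without quisinostat 1 for quisinostat and 4 without mivebresib 1 for mivebresib. Scaled by library size alone, which shifts the median log2 of all genes by 0.07, 0.20 and 0.02, the split of higher and lower members was 7 and 0, 16 and 3, and 13 and 7. ABCB6, ABCB8, ABCB10, ABCC2, ABCF2 and ABCF3 were among the members that then lost their lower call with quisinostat, and ABCE1 lost its call with romidepsin.

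Combining the 3 drugs, 4 members were called higher with all of them, namely ABCA7, ABCB1, ABCG1 and ABCG4. ABCE1 was called lower with all 3, although under library size alone its romidepsin value was -0.20 (adjusted p = 0.0767). The romidepsin call of ABCA7 was lost in edgeR with the 4 compared libraries alone (adjusted p = 0.101), and that of ABCG4 in limma-voom (adjusted p = 0.0506). Another 5 members passed in opposite directions with quisinostat and mivebresib, and 14 passed with none. The rest passed with 1 or 2 drugs in one direction. The comparisons share the control libraries, so these patterns are not independent of each other. The share of all genes with each pattern was not counted, so the patterns are not read as particular to the family.

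**Figure D1:**
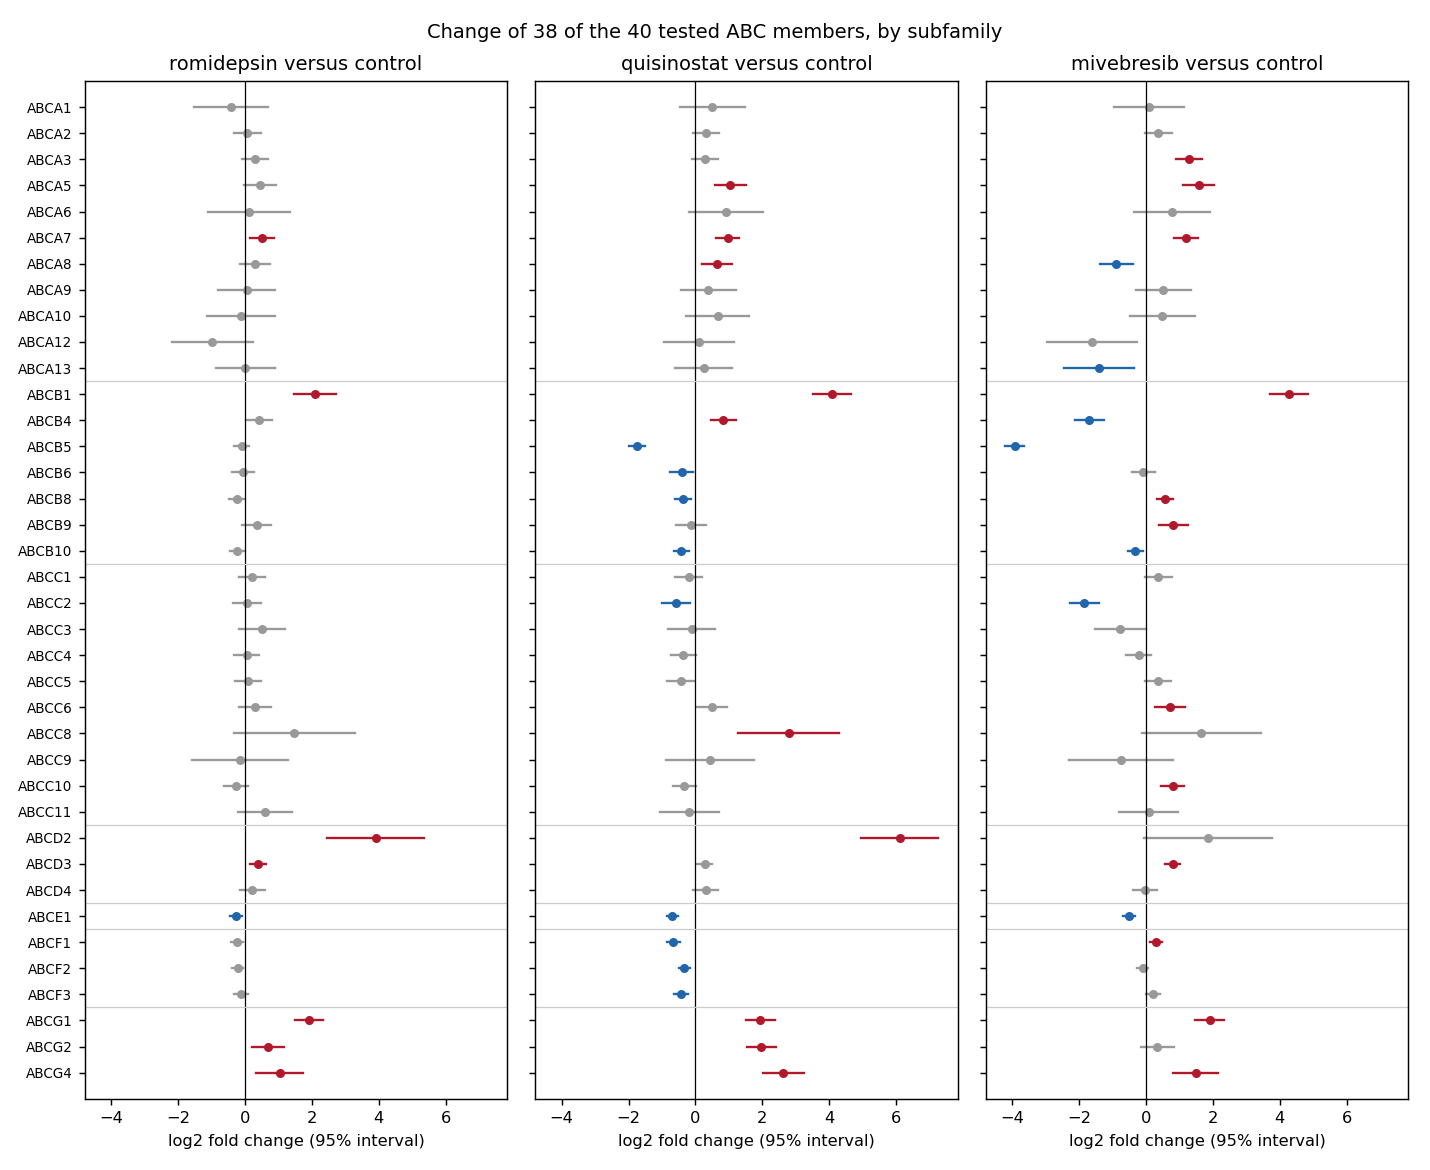
Log2 fold change against control (x axis) of 38 of the 40 tested ABC members (y axis, ordered by subfamily) for each drug; points are edgeR estimates from 2 libraries a group, bars 95% intervals, red higher and blue lower at adjusted p below 0.05, grey not passed. ABCB1 stands at 2.10, 4.07 and 4.28, ABCB5 reaches -3.92 with mivebresib, and ABCD2 reaches 6.10 with quisinostat.

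ABCB1 rose with all 3 drugs. It lies on the minus strand of chromosome 7 (GRCh38, chr7:87503633-87713323, GENCODE 29). RefSeq lists a pair of starts for it, and the 250 bases before each are printed because they differ in composition and in motif content. They come from the minus strand of GRCh38.p14. The windows were searched on both strands for 4 motifs, the CCAAT box, the GC box GGGCGG, the E box CACGTG and the TATA box TATAAA, and matches are in capitals.
ABCB1 upstream start, chr7:87713296-87713545: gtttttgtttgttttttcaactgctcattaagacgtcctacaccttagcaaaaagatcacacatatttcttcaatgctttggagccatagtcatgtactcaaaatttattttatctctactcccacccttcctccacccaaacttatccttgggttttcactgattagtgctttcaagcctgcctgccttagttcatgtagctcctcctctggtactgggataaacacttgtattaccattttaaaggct
ABCB1 downstream start, chr7:87600885-87601134: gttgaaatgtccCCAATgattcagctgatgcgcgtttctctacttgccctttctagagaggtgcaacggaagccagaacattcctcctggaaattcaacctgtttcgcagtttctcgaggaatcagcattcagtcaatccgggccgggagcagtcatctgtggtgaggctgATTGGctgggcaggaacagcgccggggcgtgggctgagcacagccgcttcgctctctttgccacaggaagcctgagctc
The upstream window is 39.2% G or C with 1 CpG and holds none of the 4 motifs. The downstream window is 55.6% G or C with 12 CpG, and it holds CCAAT with its first base at position -238 from the start, and at -79 ATTGG, which is CCAAT read on the other strand. Among 35116 RefSeq windows of this length, 32% hold CCAAT on either strand, and so do 20.8% of the 53 windows found for 35 of the members. The shares are 42.6% and 47.2% for GGGCGG, 6.34% and 17% for CACGTG, and 10.7% and 11.3% for TATAAA. The counts are per gene and do not say which start was used.

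The control libraries held 19 and 32 reads of ABCB1, or 0.673 and 1.17 CPM. Romidepsin libraries held 135 and 94 reads, or 4.64 and 3.24 CPM. Quisinostat gave 460 and 518 reads, at 14.6 and 16.5 CPM, and mivebresib 461 and 525, at 16.9 and 18.9 CPM. Each drug group lay above the control, and romidepsin lay below the other drugs. ABCB1 was 4.27-fold higher with romidepsin (95% interval 2.76 to 6.63, adjusted p = 0.000999, edgeR). It was 16.8-fold higher with quisinostat (11.4 to 24.9, adjusted p = 5.48e-06) and 19.4-fold higher with mivebresib (13.1 to 28.6, adjusted p = 6.63e-06). In these bulk libraries a change in RNA per cell and a change in the share of cells with the transcript cannot be told apart.

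At the same concentration of 40 nM, ABCB1 was 3.94-fold higher with quisinostat than with romidepsin, a log2 difference of 1.98 (1.53 to 2.43, adjusted p = 0.000255). In the viability assays of the paper, romidepsin was more potent than quisinostat in MP38 cells, so an equal concentration is not an equal effective dose. Mivebresib at 1200 nM was 2.18 above romidepsin on the log2 scale (1.73 to 2.63, adjusted p = 5.09e-05). Mivebresib and quisinostat differed by 0.20 (-0.20 to 0.60, adjusted p = 0.347), which did not pass. Their doses differ.

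Per kb of exon, ABCB1 was 0.159 ± 0.0604 CPM in control (SD, n = 2), which ranked 28 among the 40 members. It reached 0.678 ± 0.170 with romidepsin, 2.67 ± 0.235 for quisinostat and 3.08 ± 0.246 for mivebresib, at ranks 26, 18 and 19. Its share of the summed per-length level of subfamily B was 0.392% and 0.568% in the control libraries, 2.39% and 1.79% with romidepsin, 8.76% and 9.65% with quisinostat, and 9.89% and 10.96% with mivebresib.

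**Figure D2:**
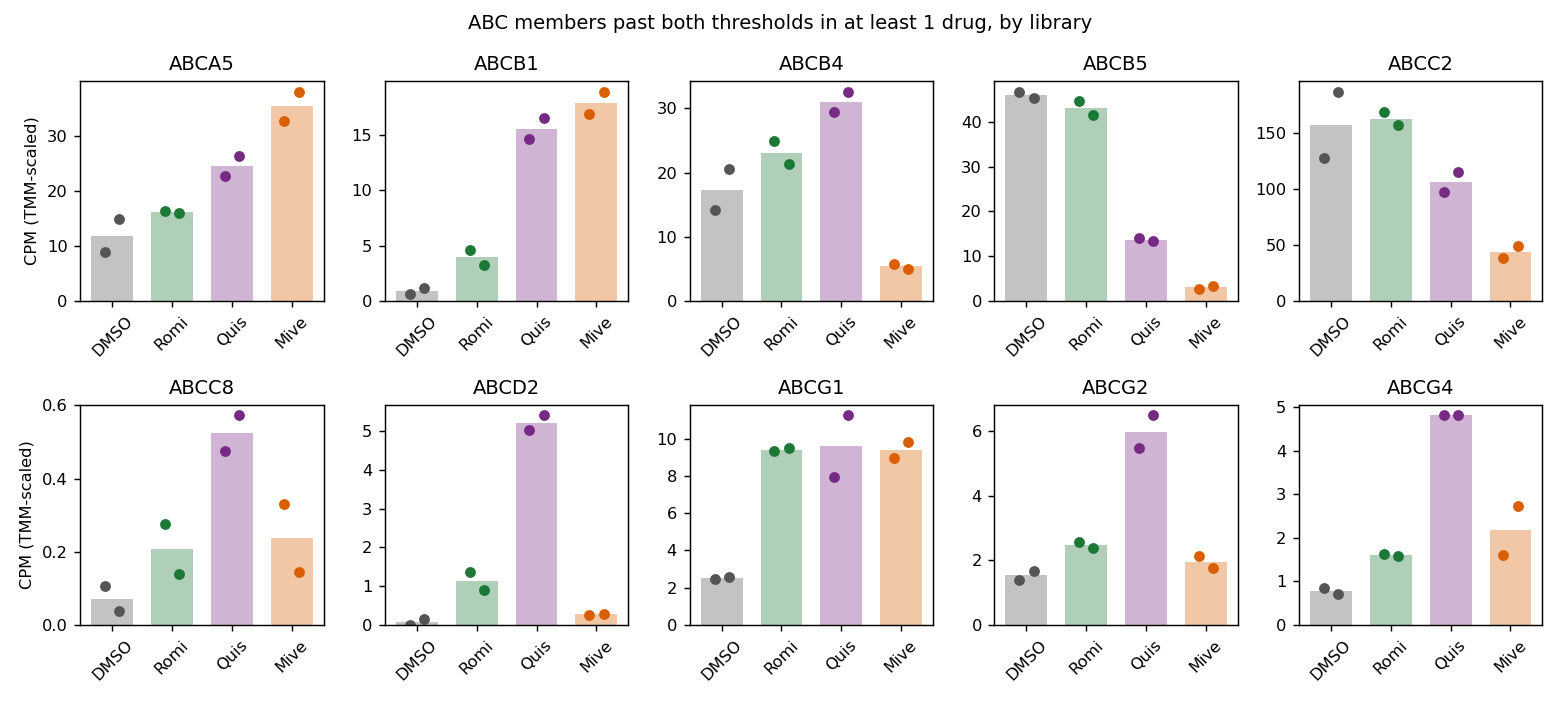
CPM on TMM-scaled library sizes (y axis, starting at 0, own scale per panel) of the 10 ABC members with an adjusted p below 0.05 and a log2 fold change beyond 1.5 in at least 1 drug; points are libraries, bars the mean of 2, DMSO is the control. ABCB1 rises from 0.673 and 1.17 to 16.9 and 18.9 CPM with mivebresib, while ABCB5 drops from 46.7 and 45.3 to 2.63 and 3.42.

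Genes around ABCB1 did not move as a block. RUNDC3B, on the plus strand, starts inside ABCB1, at -85.8 kb from its annotated start and between its RefSeq starts, and shares no exon base with it. Its counts were 6 and 8 in control, 41 and 33 with romidepsin, 186 and 188 with quisinostat, and 29 and 33 with mivebresib. RUNDC3B passed the filter on low counts only through the drug libraries, where it was high, so its differences from control are given as a description. The log2 changes were 2.32, 4.54 and 2.14. RUNDC3B was thus higher with each drug, but it was 2.40 lower on the log2 scale with mivebresib than with quisinostat (log2 fold change -2.40, adjusted p = 2e-05), where ABCB1 did not pass. CROT, a peroxisomal carnitine acyltransferase, rose by 0.78, 1.46 and 0.89 in log2. DBF4, a regulator of replication origin firing, fell with romidepsin and quisinostat (-0.42 and -0.50). SLC25A40, a mitochondrial carrier, passed with none, and DMTF1 rose with mivebresib (0.55). Of the 6 neighbours, ABCB4 included, 2 were higher and 1 lower with romidepsin, 3 and 1 with quisinostat, and 3 and 1 with mivebresib. The share called was 50%, 66.7% and 66.7%, beside 31%, 53.2% and 46.2% of all genes. These counts include RUNDC3B.

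**Figure D3:**
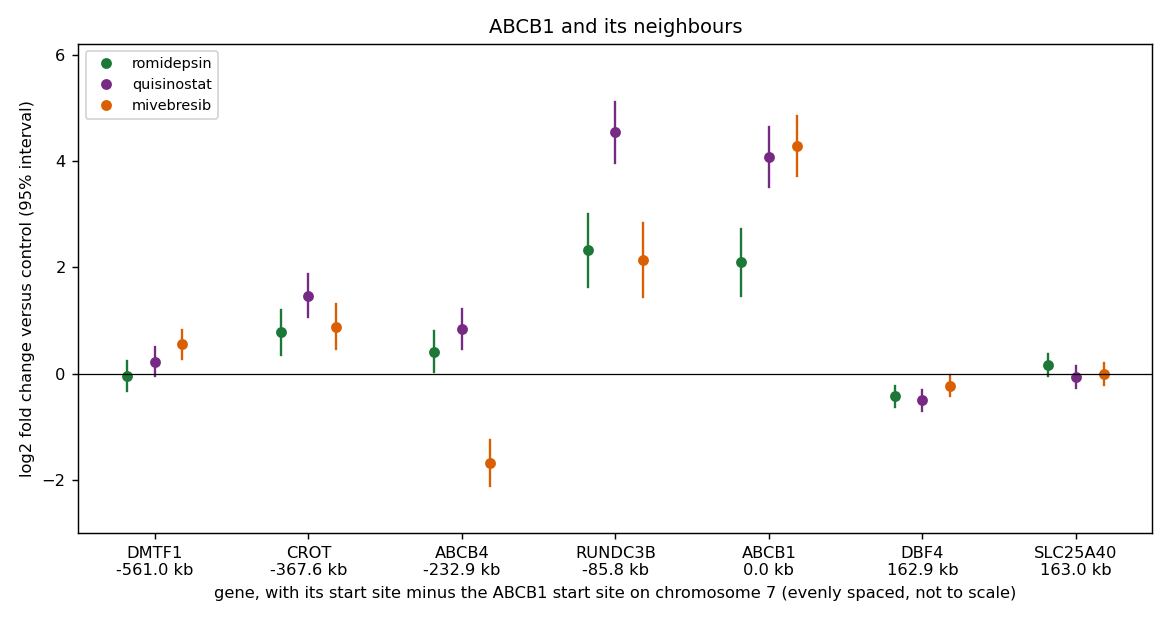
Log2 fold change against control (y axis, bars 95% intervals, 2 libraries a group) of ABCB1 and 6 neighbouring genes on chromosome 7, evenly spaced in the order of their start sites, with the distance to the ABCB1 start in kb under each name. RUNDC3B and ABCB1 are higher with all 3 drugs, and ABCB4 lies at 0.84 with quisinostat and -1.69 with mivebresib.

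ABCB4, which moves phosphatidylcholine into bile, starts at -232.9 kb from the ABCB1 start on the same strand (chr7:87401697-87480435). It had 14.2 and 20.5 CPM in control, 24.9 and 21.2 with romidepsin, 29.4 and 32.6 with quisinostat, and 5.74 and 5.04 with mivebresib, from 140 to 1024 reads. Quisinostat libraries were the highest and mivebresib libraries the lowest, with no overlap. ABCB4 was 1.79-fold higher with quisinostat (adjusted p = 0.00301) and 3.22-fold lower with mivebresib (adjusted p = 0.000169). The direct log2 difference of mivebresib from quisinostat was -2.52 (-2.95 to -2.10, adjusted p = 1.19e-05). The romidepsin value of 0.41 did not pass (adjusted p = 0.0954).

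Among the drug and conjugate exporters, ABCB5 fell furthest. ABCB5, an exporter described in melanoma and in limbal stem cells, lies at chr7:20615207-20777038 on the plus strand, far from ABCB1. It had 46.7 and 45.3 CPM in control, 44.6 and 41.6 with romidepsin, 14 and 13.3 with quisinostat, and 2.63 and 3.42 with mivebresib, from 72 to 1319 reads. It was 3.37-fold lower with quisinostat (2.86 to 3.98, adjusted p = 5.28e-06) and 15.2-fold lower with mivebresib (12.5 to 18.5, adjusted p = 7.76e-07). Romidepsin gave a log2 value of -0.10 (-0.32 to 0.13, adjusted p = 0.488). At 40 nM, quisinostat was below romidepsin by a log2 difference of -1.66 (-1.90 to -1.42, adjusted p = 4.65e-05). Per length, ABCB5 made up 17.1% and 13.8% of subfamily B in control and 0.969% and 1.24% with mivebresib, where ABCB1 stood above it.

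ABCC2, the conjugate exporter of the bile canaliculus, was the most abundant of these exporters per length in control, at 20.04 ± 5.35 CPM per kb. Its range overlapped that of ABCC1, the broad glutathione-conjugate exporter, at 19.4. The ABCC2 start is shown because its control level is high and it dropped with mivebresib, and TATAAA is in capitals.
ABCC2 start, plus strand, chr10:99782390-99782639: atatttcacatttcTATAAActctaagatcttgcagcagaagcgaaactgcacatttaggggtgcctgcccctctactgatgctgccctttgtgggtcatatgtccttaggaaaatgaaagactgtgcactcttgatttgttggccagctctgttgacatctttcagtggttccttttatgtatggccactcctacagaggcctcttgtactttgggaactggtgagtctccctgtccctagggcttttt
The TATAAA match begins at position -236 from the start, and the other motifs are not in this window. ABCC2 had 127 and 187 CPM in control, 169 and 157 with romidepsin, 97.1 and 115 with quisinostat, and 38.7 and 48.9 with mivebresib, from 1058 to 5112 reads. The mivebresib libraries lay far below all others, and the quisinostat libraries lay below both control libraries. ABCC2 was 3.58-fold lower with mivebresib (2.65 to 4.84, adjusted p = 0.00011) and 1.48-fold lower with quisinostat (adjusted p = 0.0286). Without control 2 the quisinostat log2 value was -0.27 (adjusted p = 0.0985), and without quisinostat 1 it was -0.44 (adjusted p = 0.169).

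ABCG2, the breast cancer resistance protein, had 39 and 46 reads in control, 75 and 69 with romidepsin, 173 and 204 with quisinostat, and 58 and 49 with mivebresib. In CPM these are 1.38 and 1.68, 2.58 and 2.38, 5.48 and 6.5, and 2.12 and 1.76. Quisinostat libraries were highest. ABCG2 was 3.91-fold higher with quisinostat (adjusted p = 6.42e-05) and 1.62-fold higher with romidepsin (adjusted p = 0.035). DESeq2 did not call the romidepsin change (adjusted p = 0.0808), and edgeR lost it without control 1 (0.58, adjusted p = 0.13), without romidepsin 1 or romidepsin 2 (adjusted p = 0.159 and 0.088) and without quisinostat 1 or quisinostat 2 (0.0505 and 0.0526). The mivebresib log2 value of 0.34 did not pass (-0.15 to 0.83). At 40 nM, quisinostat was 1.27 above romidepsin in log2 (0.86 to 1.68, adjusted p = 0.00115).

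The other exporters moved less. ABCC10 rose with mivebresib (log2 0.80, adjusted p = 0.00287), from 21.1 and 29.8 CPM in control to 44.1 and 44.3. ABCC1, ABCC3, ABCC4, which exports cyclic nucleotides, ABCC5 and ABCC11 passed with none of the drugs against control, at log2 values from -0.76 to 0.61. Of the 10 tested exporters, 2 were higher with romidepsin and none lower, 2 higher and 2 lower with quisinostat, and 2 and 2 with mivebresib. The share called was 20%, 40% and 40%, below the 31%, 53.2% and 46.2% of all genes.

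ABCG1 and ABCG4 rose among the sterol exporters, both of which pass cholesterol to lipoproteins. ABCG1 had 69 and 70 reads in control, 272 and 276 with romidepsin, 251 and 354 with quisinostat, and 245 and 274 with mivebresib. The control CPM were 2.44 and 2.56, and the 6 drug libraries ranged from 7.95 to 11.3 with overlap between drugs. ABCG1 was 3.76-fold higher with romidepsin (2.79 to 5.08, adjusted p = 0.00026), 3.84-fold with quisinostat (adjusted p = 6.3e-05) and 3.76-fold with mivebresib (adjusted p = 9.06e-05). No pair of drugs passed, and the log2 differences were 0.03 for quisinostat minus romidepsin (-0.34 to 0.40), -0.00 for mivebresib minus romidepsin (-0.38 to 0.37) and -0.03 for mivebresib minus quisinostat (-0.40 to 0.34).

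ABCG4 had 24 and 19 reads in control, 47 and 46 with romidepsin, 152 and 151 with quisinostat, and 44 and 76 with mivebresib. In CPM these are 0.85 and 0.694, 1.61 and 1.58, 4.81 and 4.81, and 1.61 and 2.73. Every drug library lay above the control. It was 2.06-fold higher with romidepsin (adjusted p = 0.0331), 6.19-fold with quisinostat (adjusted p = 9.21e-05) and 2.80-fold with mivebresib (adjusted p = 0.00374). The romidepsin call was lost in limma-voom (adjusted p = 0.0506), without control 2 (0.91, adjusted p = 0.0773), without romidepsin 1 or romidepsin 2 (adjusted p = 0.125 and 0.102) and without quisinostat 1 or quisinostat 2 (0.0548 and 0.0551). At 40 nM, quisinostat was 1.59 above romidepsin in log2 (adjusted p = 0.00174). ABCA1, the exporter to apolipoprotein A-I, had only 6 to 17 reads a library and did not pass with any drug.

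ABCG1 and ABCA1 are textbook targets of the liver X receptors (LXRs), nuclear receptors for oxysterols. A list of LXRs, their RXR partner receptors and LXR targets outside the family had 9 tested genes. Of these, 2 were higher and 4 lower with romidepsin, and none higher and 4 lower with quisinostat. With mivebresib 4 were higher and none lower. The 4 lower genes with romidepsin were the receptors NR1H2, RXRA and RXRB and the target SMPDL3A. The share called was 66.7%, 44.4% and 44.4%, beside 31%, 53.2% and 46.2% of all genes. NR1H2, the widely expressed LXR, fell with romidepsin (log2 -0.77, adjusted p = 0.00254) and with quisinostat (-0.61, adjusted p = 0.00337). SREBF1, a lipogenic transcription factor, had log2 changes of 0.77, -0.61 and 0.62 with romidepsin, quisinostat and mivebresib, and each passed. APOE, a lipid-carrying apolipoprotein, passed with none.

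Of 11 tested members in the other lipid carriers, 1 was higher with romidepsin, 4 with quisinostat, and 3 were higher and 3 lower with mivebresib. The share called was 9.09%, 36.4% and 54.5%, beside 31%, 53.2% and 46.2% of all genes. ABCA5, a lysosomal lipid carrier, had 8.86 and 14.9 CPM in control, 16.3 and 16 with romidepsin, 22.7 and 26.3 with quisinostat, and 32.7 and 38.1 with mivebresib, from 250 to 1058 reads. The groups did not overlap and lay in that order from low to high. It was 2.06-fold higher with quisinostat (adjusted p = 0.00296) and 2.98-fold with mivebresib (adjusted p = 0.000401). ABCA5 shares 318 exon bases with ABCA10 on the same strand, and ABCA10 had 11 to 24 reads a library.

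ABCA7, a phospholipid carrier, rose by 0.51, 0.96 and 1.20 in log2 (adjusted p = 0.0402, 0.00108 and 0.000392). Its romidepsin value was 0.29 without control 1 (adjusted p = 0.0927) and 0.80 without control 2. ABCA3, which loads surfactant lipids into lamellar bodies, rose with mivebresib from 65 and 97 CPM to 199 and 193 (log2 1.28, adjusted p = 0.000452). ABCA13 fell with mivebresib from 14 and 21 reads to 6 and 7 (log2 -1.40, adjusted p = 0.0353), and DESeq2 did not call it (adjusted p = 0.104). The edgeR call was also lost without control 2 (-1.06, adjusted p = 0.169) and without any quisinostat or mivebresib library.

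ABCA8 had 14.5 and 23 CPM in control, 25.2 and 21.1 with romidepsin, 27.8 and 30.8 with quisinostat, and 9.33 and 11 with mivebresib, from 255 to 966 reads. It was higher with quisinostat (log2 0.65, adjusted p = 0.0229) and lower with mivebresib (-0.88, adjusted p = 0.0089). The quisinostat value was 0.35 without control 1 (adjusted p = 0.0506) and 1.01 without control 2. It also missed the threshold without quisinostat 1 (0.73, adjusted p = 0.0529) and quisinostat 2 (0.56, adjusted p = 0.118). The mivebresib value was -0.51 without control 2 and -0.77 without mivebresib 1 (adjusted p = 0.0695). The direct difference of mivebresib from quisinostat was -1.53 (SE 0.207, adjusted p = 0.000328). ABCA2, ABCA6, ABCA9, ABCA10 and ABCA12 did not pass with any drug.

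ABCD2 showed the largest fold of the tested members, from almost no reads. It carries very long chain fatty acyl-CoA into peroxisomes. It lies on the minus strand of chromosome 12. The start nearest to the annotated gene start is shown because the control was nearly silent, with CCGCCC, the reverse complement of GGGCGG, and CCAAT in capitals.
ABCD2 start, minus strand, chr12:39619804-39620053: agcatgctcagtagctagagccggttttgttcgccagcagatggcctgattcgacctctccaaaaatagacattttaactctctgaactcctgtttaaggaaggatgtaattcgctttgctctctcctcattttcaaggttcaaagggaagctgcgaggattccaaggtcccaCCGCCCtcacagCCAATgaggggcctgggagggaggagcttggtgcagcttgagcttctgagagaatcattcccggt
The CCGCCC match begins at position -77 and the CCAAT match at -65 from the start. The windows printed for the downstream ABCB1 start and for ABCD2 both hold CCAAT, and ABCC2 and the upstream ABCB1 start do not.

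ABCD2 had 0 and 4 reads in control, 40 and 26 with romidepsin, 159 and 170 with quisinostat, and 7 and 8 with mivebresib. It passed the filter on low counts through the romidepsin and quisinostat libraries alone, so its differences from control are given as a description. In CPM the quisinostat libraries stood at 5.03 and 5.41 and the control at 0 and 0.146. Summed over libraries and scaled for depth, the count ratio to control was 15.8 with romidepsin (counting interval 5.88 to 59.6), 72.6 with quisinostat (28.1 to 268.0) and 3.78 with mivebresib (1.20 to 15.7). The intervals cover counting error only. In the fit the log2 values were 3.90 with romidepsin, 6.10 with quisinostat and 1.86 with mivebresib. ABCD2 is counted among the called members with romidepsin and quisinostat, but these calls are no support because of the filter. Without control 2 the only control library has no read, and the fitted log2 values were 8.06 with romidepsin and 10.25 with quisinostat. At 40 nM, quisinostat was 2.20 above romidepsin in log2 (1.47 to 2.93, adjusted p = 0.00133).

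ABCD3, a carrier of branched and dicarboxylic acyl-CoA, rose with romidepsin (0.38, adjusted p = 0.0245) and mivebresib (0.79, adjusted p = 0.000396). ABCD4, a lysosomal protein of cobalamin export, did not pass with any drug.

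**Figure D4:**
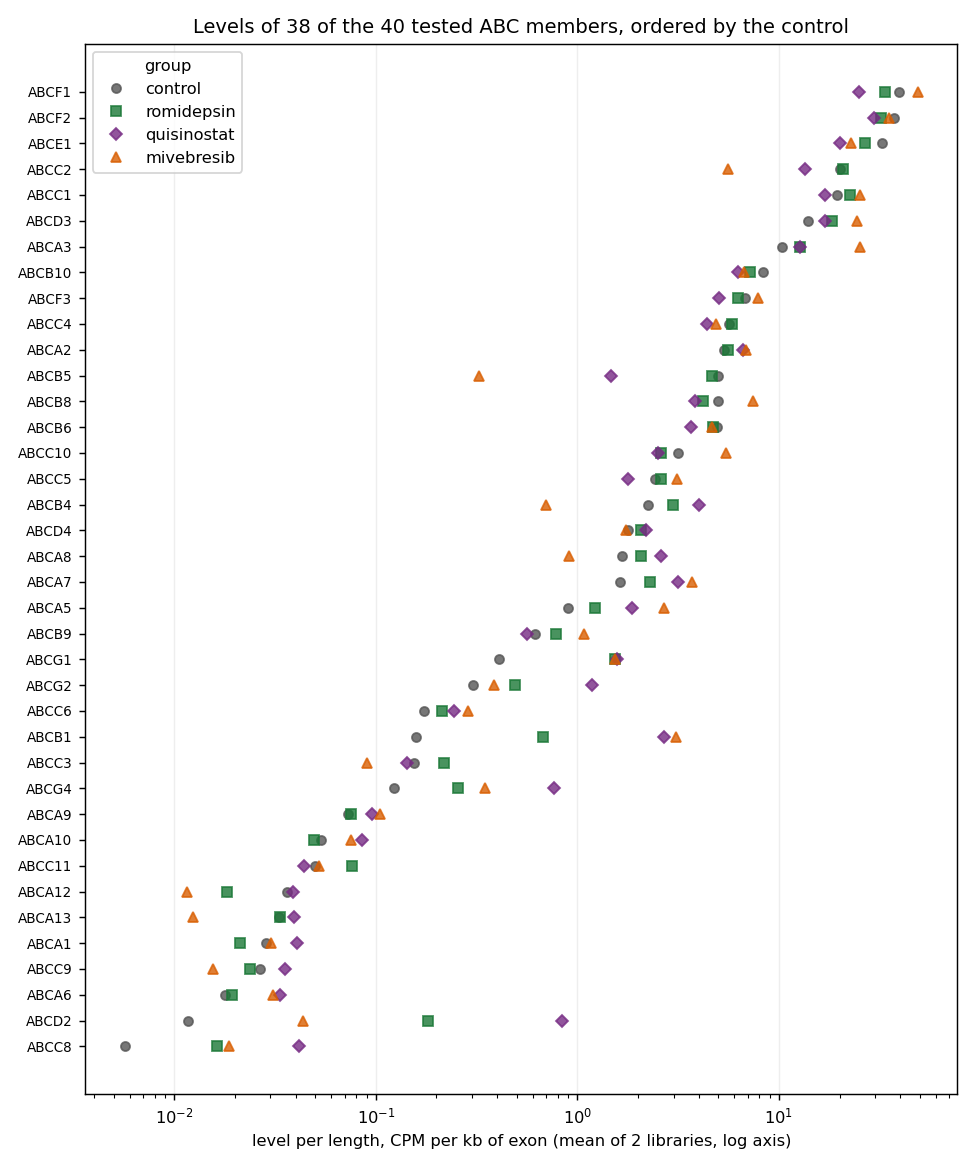
Level per length (x axis, CPM per kb of union exon length, log axis, mean of 2 libraries) of 38 of the 40 tested ABC members (y axis, ordered by the control), with a symbol for each group. ABCF2 lies at 29.7 to 37.3 in the 4 groups, and ABCB1, ABCD2 and ABCB5 stand furthest from their control symbols.

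The organelle transporters of subfamily B that are described here changed by less than a log2 of 1. ABCB8, a mitochondrial transporter, had 41.3 and 51.5 CPM in control, 39.4 and 39 with romidepsin, 35.9 and 35.5 with quisinostat, and 69.9 and 68.4 with mivebresib, from 1116 to 1912 reads. It was lower with quisinostat (log2 -0.38, adjusted p = 0.0153) and higher with mivebresib (0.58, adjusted p = 0.00216), and the difference was 0.95 (0.72 to 1.19, adjusted p = 9.98e-05). The quisinostat value was -0.22 without control 2, and it missed the threshold without quisinostat 1 (adjusted p = 0.0763) and quisinostat 2 (adjusted p = 0.074). ABCB10, a mitochondrial protein of haem synthesis, fell with quisinostat and mivebresib (-0.43 and -0.32), and the mivebresib call was lost without control 2 (-0.22, adjusted p = 0.094) and without any quisinostat or mivebresib library. ABCB6, a porphyrin carrier, fell with quisinostat (-0.42, adjusted p = 0.0448), and its value was -0.18 without control 2 (adjusted p = 0.223) and -0.63 without control 1. Leaving out any drug library also ended that call. ABCB9, a lysosomal peptide carrier, rose with mivebresib (0.81, adjusted p = 0.00808, and 0.0587 without mivebresib 1). Exons of ABCB9 overlap OGFOD2 and ARL6IP4 on the other strand, and ABCE1 overlaps ANAPC10 and OTUD4 in the same way, as ABCA8 does ABCA9-AS1. ABCB6 and ABCF2 each overlap a same-strand gene model, and ABCB10 and ABCF2 have pseudogene copies in the table among which their reads could be split. The use of strand in counting is not given in the sources used here.

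The potassium channel regulators were scarce. ABCC8, the sulfonylurea receptor of the beta cell channel, had 3 and 1 reads in control, 8 and 4 with romidepsin, 15 and 18 with quisinostat, and 9 and 4 with mivebresib, or at most 0.573 CPM. ABCC8 is counted among the called members with quisinostat only, at a fitted log2 of 2.79 and a count ratio of 7.28 (2.59 to 28.3). It passed the filter on low counts through the quisinostat libraries alone, and a filter of at least 1 CPM in 2 libraries removed it, so the difference is given as a description. Neither the quisinostat difference from romidepsin (1.33, adjusted p = 0.0843) nor that of mivebresib from quisinostat (-1.14, adjusted p = 0.0929) passed. KCNJ11, the channel pore that ABCC8 regulates and its neighbour on chromosome 11, stood higher with each drug. It went from 3 and 13 reads to 38 and 42, 69 and 73, and 35 and 35 (log2 2.24, 2.95 and 2.12). KCNJ11 passed the filter only with the drug libraries, where it was high, so this too is a description. ABCC9, the counterpart of ABCC8 in muscle, had 3 to 15 reads a library and passed with none. ABCC6, needed for ATP and pyrophosphate release, was 0.72 higher in log2 with mivebresib (adjusted p = 0.0176), which DESeq2 did not call (adjusted p = 0.106). Its call was also lost on leaving out either control or either mivebresib library, and ABCC6 has pseudogene copies in the table.

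The 4 ribosome factors were lower with quisinostat, as were 25.1% of all genes, although under library size alone ABCF2 (-0.13, adjusted p = 0.17) and ABCF3 (-0.23, adjusted p = 0.055) did not pass. ABCE1, which splits ribosomes after termination, had 204 and 201 CPM in control, 163 and 173 with romidepsin, 125 and 126 with quisinostat, and 144 and 142 with mivebresib, from 3939 to 5747 reads. It fell by 0.27, 0.69 and 0.50 on the log2 scale (adjusted p = 0.0256, 0.000118 and 0.000785). ABCF1, a factor of translation initiation, had 171 and 187 CPM in control, 151 and 151 with romidepsin, 111 and 115 with quisinostat, and 229 and 213 with mivebresib, from 3508 to 6269 reads. It was lower with quisinostat (-0.66, adjusted p = 0.00027) and higher with mivebresib (0.31, adjusted p = 0.016), with a direct difference of 0.96 (0.77 to 1.16, adjusted p = 2.82e-05). The mivebresib call of ABCF1 was lost without mivebresib 1 (0.25, adjusted p = 0.112). ABCF2 and ABCF3 fell with quisinostat (-0.33 and -0.43). With mivebresib they were at -0.09 and 0.21, and both were higher with mivebresib than with quisinostat (0.24 and 0.64, adjusted p = 0.0237 and 0.000383). The quisinostat call of ABCF2 was lost without quisinostat 2 (adjusted p = 0.0553).

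Compared with each other, the drugs differed in many members. At 40 nM, 6 members were higher and 7 lower with quisinostat than with romidepsin, where 21% and 14.6% of all genes were (35.6% in either direction). Mivebresib gave 10 higher and 9 lower members than romidepsin, beside 23.7% and 25.2% (48.9% in either direction). There were 12 higher and 9 lower members with mivebresib than with quisinostat, beside 26.2% and 31.5% (57.7%). Under library size alone the split was 7 and 3 for quisinostat against romidepsin and 9 and 11 for mivebresib against quisinostat. Without a control library, quisinostat was lower than romidepsin in 13 (control 1) or 11 (control 2) members, and without 1 of the romidepsin or quisinostat libraries in 3 or 4. Mivebresib was lower than romidepsin in 5 members without romidepsin 1, mivebresib 1 or mivebresib 2. The higher members with quisinostat over romidepsin were ABCA5, ABCA7, ABCB1, ABCD2, ABCG2 and ABCG4. With a log2 fold change beyond 1.5 added, 7 members were lower and none higher with mivebresib than with quisinostat, beside 12.6% and 1.73% of all genes. The same limit left 3 higher and 1 lower for quisinostat against romidepsin, beside 5.41% and 0.179%, and 1 higher and 4 lower for mivebresib against romidepsin, beside 2.52% and 6.7%.

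Several romidepsin calls rested on a thin margin. ABCA7, ABCD3, ABCE1, ABCG2 and ABCG4 each lost the call when either romidepsin library was left out, at adjusted p from 0.082 to 0.208. ABCA7 and ABCE1 also lost it without either quisinostat library, as did ABCG2 and ABCG4, and ABCA7 without either mivebresib library. ABCB1, ABCD2 and ABCG1 kept it under all 16 alternatives, though ABCD2 passed the filter on low counts only through drug libraries where it was high. With the log2 fold change beyond 1.5 added, these same 3 members remained with romidepsin and none was lower, beside 3.77% and 0.312% of all genes. With quisinostat the added limit left 6 higher (ABCB1, ABCC8, ABCD2, ABCG1, ABCG2 and ABCG4) and ABCB5 lower, beside 11.2% and 1.03%. Of these, ABCC8 and ABCD2 passed the filter on low counts only through drug libraries where they were high. With mivebresib it left ABCA5, ABCB1 and ABCG1 higher and ABCB4, ABCB5 and ABCC2 lower, beside 3.96% and 4.36%.

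Summed over the 46 members per length, the family stood at 263.7 and 311.9 CPM per kb in the control libraries, 288.3 and 279.3 with romidepsin, 231.6 and 246.3 with quisinostat, and 328.4 and 324.4 with mivebresib. The quisinostat libraries lay below and the mivebresib libraries above the control.

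Genes that work with the exporters were taken from lists. Glutathione feeds the conjugate exporters of subfamily C. Of 14 tested genes of its synthesis and conjugation, 1 was higher with romidepsin, 4 were higher and 2 lower with quisinostat, and 6 were higher and 4 lower with mivebresib. The share called was 7.14%, 42.9% and 71.4%, beside 31%, 53.2% and 46.2% of all genes. GCLC, the catalytic subunit of the rate-limiting ligase, rose with mivebresib (log2 1.32, adjusted p = 9.12e-06), as did its modifier GCLM (0.79) and the reductase GSR (0.91). MGST2, a microsomal glutathione transferase, fell with mivebresib (-1.67). Of 3 tested xenobiotic receptors and regulators, 33.3%, 100% and 100% were called, beside 31%, 53.2% and 46.2% of all genes. AHR rose with each drug (1.18, 0.96 and 1.23). NR1I3 had 16 and 14 reads in control. It passed as higher with quisinostat (log2 1.25, 43 and 38 reads) and as lower with mivebresib (0 and 2 reads). NR1I2, the receptor best known for inducing ABCB1 in liver, had no read in any library. NFE2L2, the oxidative stress regulator, was lower with quisinostat (-0.48) and higher with mivebresib (0.42).

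Of 7 tested uptake carriers and exporters of other families, none passed with romidepsin or mivebresib. With quisinostat SLC22A4, a cation carrier, was higher (1.34) and SLCO3A1, an anion carrier, was lower (-0.66). Called shares were 0%, 28.6% and 0% with romidepsin, quisinostat and mivebresib, beside 31%, 53.2% and 46.2% of all genes. ABC proteins filed under other symbols were TAP1 and TAP2, which load peptides for MHC class I, and CFTR. TAP1 fell with mivebresib (-0.69, adjusted p = 0.00592), TAP2 passed with none, and CFTR had at most 1 read a library.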

How the data were processed

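RNA from MP38 cells was sequenced as strand-specific mRNA libraries with paired reads. The authors ran their reads through BioJupies and deposited raw counts per gene symbol, which are used here. The processing notes name hg38, and the aligner, annotation and use of strand in counting are not given in the sources used here. Their log-scale and quantile-normalized tables were not used. Every column was mapped to a library by its label.

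The counts were fitted in edgeR 4.0.16 (R 4.3.3) as 1 quasi-likelihood model of all 8 libraries, with filterByExpr by group, TMM factors, 4 residual degrees of freedom and Benjamini-Hochberg adjustment over 15085 genes. A call is an adjusted p below 0.05, the stated limit of the study, which also asks for a log2 fold change beyond 1.5. CPM uses TMM-scaled library sizes. Levels per length divide CPM by union exon length from GENCODE 29. Fold intervals are 95% intervals from the model. Alternatives were limma-voom (limma 3.58.1), DESeq2 1.42.0, other scalings, other filters, the libraries of a comparison alone, a replicate block and leaving out each library. On simulated counts for romidepsin versus control over 15085 genes, edgeR recovered 96% of genes changed by a log2 of 1 and 100% of those changed by 2, with 12 false calls. The changed genes were drawn only from those with higher mean counts, and every gene and group had the same spread. The simulation therefore does not cover members with few reads or the wider spread of the control duplicates. Promoter windows are RefSeq entries of GRCh38.p14, found for 35 of 46 members.

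Described in full are ABCB1, each member past both limits in any drug, the 3 largest rises and falls a drug among the called members, and members called in opposite directions. The others are named in their role groups, except a few members that enter the counts and sums but are not reported here. The members and lists were chosen with earlier results of these data known. Total counts of 28483235 to 29359024 a library limit the precision for members with under about 20 reads. The intervals of the count ratios given for ABCD2 and ABCC8 cover counting error only.

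The labels give the replicate number no meaning, and whether it pairs the libraries is not known. Correlations of same-numbered deviations ranged from -0.16 to 0.16, and such values over all genes with duplicates alone cannot decide it.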

Additional observations from a re-analysis of the deposited data

How the results depend on the processing

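ABCB1 kept its direction and its call with all 3 drugs under all 16 alternatives, with log2 ranges of 1.77 to 2.54 with romidepsin, 3.72 to 4.51 with quisinostat and 3.93 to 4.72 with mivebresib. The replicate block gave ABCB1 log2 values of 2.10, 4.07 and 4.28, moved no count of called members by over 1.5 times, and ended the calls of ABCA13 with mivebresib and ABCB6 with quisinostat (adjusted p = 0.0522 and 0.0562). Of the 45 other called member results, 24 kept the call under all 16 alternatives. ABCC8 with quisinostat kept it under the 15 that gave it a value. ABCC8, and ABCD2 among the 24, passed the filter on low counts only through drug libraries where they were high. Their kept calls are therefore no support. The filter of at least 1 CPM in 2 libraries removed ABCC8 and ABCA13. Over 718 values, 633 stayed on the same side of the threshold, 85 lost it and none turned direction.

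The counts of called members depended more on the setting. With the 4 compared libraries alone, romidepsin gave 4 higher and 0 lower, quisinostat 6 lower, and quisinostat against romidepsin 13 lower. limma-voom gave 2 lower with romidepsin. Scaling by library size alone gave 0 lower with romidepsin, 16 higher and 3 lower with quisinostat, and 3 lower for quisinostat against romidepsin. That scaling shifts the median log2 of all genes by 0.20 with quisinostat, by 0.13 for quisinostat against romidepsin and by -0.18 for mivebresib against quisinostat. Adding the log2 limit of 1.5 left 3 higher and 0 lower with romidepsin, 6 and 1 with quisinostat and 3 and 3 with mivebresib, then 3 and 1 for quisinostat against romidepsin, 1 and 4 for mivebresib against romidepsin, and 0 higher for mivebresib against quisinostat. Leaving out 1 library gave 3 to 15 higher and 0 to 5 lower with romidepsin, 9 to 14 and 6 to 14 with quisinostat, 9 to 17 and 4 to 10 with mivebresib, 4 to 8 and 3 to 13 for quisinostat against romidepsin, 7 to 12 and 5 to 10 for mivebresib against romidepsin, and 9 to 15 and 7 to 11 for mivebresib against quisinostat. The largest counts came without control 1 or control 2, the duplicates that differed most. The causes were not tested. With 2 libraries a group, members under about 20 reads in control, such as ABCC8, ABCC9, ABCA1 and ABCD2, have intervals that span several fold.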
